A study of Mus musculus with 12 samples.

Results

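Freshly isolated crypts of the mouse small intestine (SI) and large intestine (LI) were compared by RNA sequencing, and regional identity was described across all genes that passed an expression filter. The comparison rests on 6 of the 12 libraries of the series, 3 from SI crypts and 3 from LI crypts. The other 6 are intestine-derived monolayers, cultured for 24 h in control medium from crypts of the same regions. They were used only to ask which regional differences were also present in culture. The study gives pooled wells, not mice, as the monolayer replicates, and whether the wells came from different mice is not stated. All libraries came from C57BL/6 mice, and the study's methods give an age of 6 to 10 weeks and mice of either sex. No library carries a transgene, deletion or drug treatment. For each crypt group, the label gives the region and names the material as in vivo tissue, and the study describes 3 mice in each tissue group. For seeding, jejunal epithelium was released in ice-cold EDTA and strained to separate crypts from villi, whereas the large intestine was minced and digested with collagenase, dispase and DNase at body temperature before EDTA. Region and isolation procedure cannot be told apart if the sequenced crypts were prepared in the same way. For monolayers, the methods took the large intestine from the same mice as the jejunum, but whether SI and LI crypt libraries of the same number share a mouse is not stated, and no source used here says which stretch of the large intestine was taken.

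The intestinal epithelium is renewed from stem cells at the crypt base. In the small intestine their progeny are mainly absorptive enterocytes, which digest and take up fat, sugar, peptides and vitamins, together with Paneth cells that guard the crypt base with antimicrobial peptides. The large intestine has no villi and few or no Paneth cells, carries a thick mucus layer made by goblet cells, and recovers salt, water and short chain fatty acids. Regional identity along the gut is set by transcription factors, among them GATA4 in the proximal bowel and the posterior HOX proteins in the distal bowel.

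Values are CPM, the counts of a gene relative to all counts of its library, scaled by TMM, which corrects each library's total for differences in composition. Where 3 values are given for a group, they stand for libraries 1, 2 and 3 in that order. A log2 fold change is SI minus LI, so positive values are higher in SI crypts. SE is an approximate standard error, the size of the fold change divided by the square root of the F statistic of the test named below. It is least certain for genes near 0 in a group. A gene was called when its adjusted p, from the quasi-likelihood test of edgeR with Benjamini-Hochberg adjustment over all tested genes, was under 0.05 and its log2 fold change was at least 1 in size. "Higher" without a test below refers to called genes. With 3 libraries a group, the p-values measure the spread among these mice and preparations. In such bulk samples, fewer cells of a type and less RNA per cell cannot be told apart.

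Of 18535 genes tested, 2033 (11%) were higher in SI crypts and 2225 (12%) were higher in LI crypts. In 61% of the tested genes the libraries of the groups did not overlap. Among 528 tested members of 29 gene lists on intestinal function, 193 were higher in SI and 124 were higher in LI, and 211 were not called. The median log2 fold change of all tested genes was -0.012, which is given beside the medians of the lists below. The lists and their members were chosen with earlier results of these data known. Comparisons of lists with all tested genes, in crypts and in monolayers, are therefore descriptions.

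**Figure D1:**
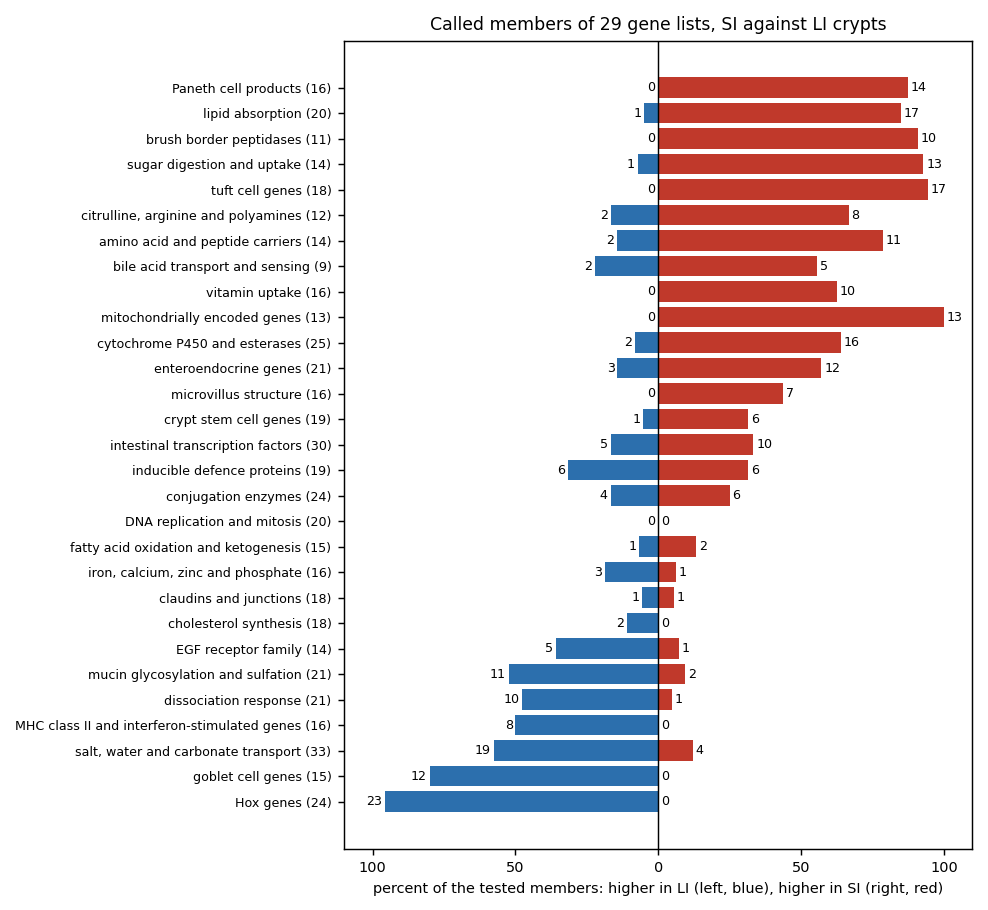
Each row is 1 gene list with its number of tested members in brackets. Bars to the right give the percentage of tested members higher in SI crypts and bars to the left the percentage higher in LI crypts, with the number of genes at the bar's end. Paneth cell products, lipid absorption, peptidases and sugar uptake lie almost wholly to the right (14, 17, 10 and 13 genes), and Hox and goblet cell genes wholly to the left (23 and 12 genes).

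Libraries held 61172680 to 67719720 counts in SI crypts and 70768226 to 76216530 in LI crypts, and the limit that a count of 0 allows, 3 counts, corresponded to 0.0394 to 0.051 CPM. Mitochondrially encoded genes took 4.56% to 9.16% of the counts in SI crypts and 2.25% to 2.59% in LI crypts. Libraries of 1 group correlated with each other at r = 0.986 to 0.988 over log-scaled genes, and libraries of different regions at 0.884 to 0.900. Single libraries stood apart in part of their genes. Of 145 genes with at least 10 CPM in SI crypts that were higher there by 5 or more on the log2 scale, 114 had their highest LI value in LI crypts 1. That library held them at a median of 1.19% of the SI mean, against 0.728% in LI crypts 2 and 0.339% in LI crypts 3. LI crypts 2 held the most Car1, Osr2, Slc10a2 and central Hoxb transcripts of the LI group. SI crypts 3 held the most Paneth cell transcripts and the least enterocyte transcripts of the SI group. SI crypts 2 held the most MHC class II transcripts of that group. Their part in the regional differences was not tested beyond leaving out each library in turn.

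Transcription factors of the gut epithelium differed in part between the regions. Of 30 tested factors, 10 were higher in SI crypts and 5 in LI crypts. Gata4 (chr14:63198922-63271692, GRCm38), a zinc finger factor of the proximal intestine, was at 187, 168 and 162 CPM in SI crypts and at 3.34, 1.97 and 1.29 CPM in LI crypts (log2 fold change 6.30, SE 0.38, adjusted p = 8.88e-05). Its relative Gata5 was at 77.5, 74.8 and 66.4 CPM in SI and 0.947, 0.631 and 0.328 CPM in LI crypts (log2 fold change 6.85, SE 0.30, adjusted p = 8.5e-06). For both genes, every SI library lay far above every LI library, and within the LI group library 1 was the highest, as it was for most genes nearly absent from LI. Gata6, the third member of the family in the gut, was at 126, 116 and 108 CPM in SI and 61.8, 57.8 and 59.97 CPM in LI crypts, a difference that passed the test but not the minimum fold change (log2 fold change 0.96, adjusted p = 6.04e-06). Onecut2 (log2 fold change 7.03), Creb3l3 (6.83), a membrane-bound activator of lipid and fasting genes, and Maf (5.67) were other factors higher in SI. Hnf4g, a nuclear receptor of enterocytes, was at 290.2, 303 and 264 CPM in SI against 29.4, 30.6 and 25.6 CPM in LI crypts (log2 fold change 3.32, SE 0.09, adjusted p = 3.24e-08), whereas its paralogue Hnf4a was at 1071, 1189 and 1118 CPM and 1117, 976 and 1014 CPM (log2 fold change 0.12, adjusted p = 0.249).

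In the opposite direction, Pparg (chr6:115360951-115490399), a nuclear receptor for fatty acids, was at 18.2, 15.6 and 13.4 CPM in SI and 85.6, 91.9 and 66.6 CPM in LI crypts (log2 fold change -2.37, SE 0.16, adjusted p = 1.62e-05). Klf4 (-2.04) and Cdx1 (-1.14) were also higher in LI. Cdx2, which specifies intestinal fate along the whole bowel, was at 320.3, 355 and 329.8 CPM in SI and 359, 358 and 274 CPM in LI crypts, and these values overlapped (log2 fold change 0.02, adjusted p = 0.888). The xenobiotic receptor PXR (Nr1i2) overlapped as well (99.7, 93.5 and 85.5 CPM and 93.6, 83.5 and 90.9 CPM), while the related receptor CAR (Nr1i3) was higher in SI (log2 fold change 3.51, adjusted p = 5.08e-06). Osr2 was at 52.2, 66.9 and 57.8 CPM in SI and 1.98, 29.4 and 1.77 CPM in LI crypts, so that LI crypts 2 alone lay near the SI libraries and the gene was not called (log2 fold change 2.41, adjusted p = 0.19).

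The letters of binding motifs for such factors occur in the promoters of regional genes. The 250 bases before the start of 4 genes are shown because they hold these letters at genes of either region, taken from RefSeq on GRCm38.p6, 5′ to 3′ on the gene's own strand, with motif matches in capitals. All motifs were searched on both strands. GATA factors are known to bind AGATAA. The nuclear receptors of the HNF4 family bind sites such as CAAAGTCCA. Posterior HOX proteins, such as those of the distal bowel, bind CAATAAA. Lct encodes lactase and lies at chr1:128328319-128328568 on the minus strand. Sis encodes sucrase-isomaltase and lies at chr3:72967864-72968113 on the minus strand. Cyp3a11, a drug-metabolising P450, lies at chr5:145879855-145880104 on the minus strand, and Muc2, the main secreted mucin, at chr7:141690090-141690339 on the plus strand.
Lct: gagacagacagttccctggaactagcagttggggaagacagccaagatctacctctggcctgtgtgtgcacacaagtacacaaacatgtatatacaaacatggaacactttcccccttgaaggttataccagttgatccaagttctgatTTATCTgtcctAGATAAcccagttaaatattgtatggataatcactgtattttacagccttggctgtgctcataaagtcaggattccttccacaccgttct
Sis: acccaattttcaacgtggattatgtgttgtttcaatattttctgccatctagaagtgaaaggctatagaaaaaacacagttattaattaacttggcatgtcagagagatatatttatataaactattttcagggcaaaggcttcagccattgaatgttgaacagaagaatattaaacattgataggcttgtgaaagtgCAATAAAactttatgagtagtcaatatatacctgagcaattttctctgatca
Cyp3a11: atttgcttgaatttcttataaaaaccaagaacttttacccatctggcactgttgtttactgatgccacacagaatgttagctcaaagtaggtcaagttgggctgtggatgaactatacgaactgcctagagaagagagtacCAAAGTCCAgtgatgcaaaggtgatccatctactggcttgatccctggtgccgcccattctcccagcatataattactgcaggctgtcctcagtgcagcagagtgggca
Muc2: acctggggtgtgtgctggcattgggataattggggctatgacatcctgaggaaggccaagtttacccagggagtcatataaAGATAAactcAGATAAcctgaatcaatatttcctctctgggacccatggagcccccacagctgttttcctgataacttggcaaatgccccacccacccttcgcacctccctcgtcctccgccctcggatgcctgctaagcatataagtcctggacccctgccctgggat

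Lct, higher in SI, holds 2 GATA matches, and so does Muc2, which was higher in LI, so the letters alone did not mark a region. Of 12203 tested genes with a promoter window, 6.38% held AGATAA, compared with 9.71% of 1370 genes higher in SI and 7.01% of 1498 genes higher in LI. CAAAGTCCA was found in 0.393% of the windows of tested genes, in 0.876% for SI and in 0.334% for LI. CAATAAA stood in 2.64%, 3.07% and 3.14% of the windows of tested, SI and LI genes. These shares are descriptions, and a match is not evidence of binding.

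Hox genes encode homeodomain factors whose order along 4 clusters follows their domain along the body axis, with the high numbers most posterior. Of 39 Hox genes, 24 passed the filter, and 23 of them were higher in LI and none in SI crypts (median log2 fold change -4.25). The filter admits genes expressed in either region. Members nearly absent from SI passed it through their LI level and could be called only as higher in LI. Those that passed belonged to the Hoxa, Hoxb and Hoxd clusters, and no Hoxc gene was tested. The most abundant, Hoxb13, was at 0.748, 0.691 and 0.57 CPM in SI and 336, 284 and 464 CPM in LI crypts (log2 fold change -9.08, SE 0.27, adjusted p = 1.01e-06). Differences of like size were measured for Hoxa10 (-7.48), Hoxa13 (-8.01) and Hoxd13 (-8.36), each without overlap between the groups. Hoxd11 had no count in any SI library and 1.91, 0.725 and 2.61 CPM in LI crypts, which makes it at least 37.8-fold higher in LI.

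Other genes of each cluster were higher in LI by less, among them Hoxa2 (-2.70), Hoxb3 (-2.88), Hoxb4 (-1.94), Hoxb7 (-2.01), Hoxd8 (-2.90) and Hoxd9 (-2.56). The sizes did not follow the order of the genes throughout, and no trend along a cluster was tested. Hoxd9 had adjusted p of 0.0922, 0.0977 and 0.0501 without SI crypts 2, LI crypts 1 or LI crypts 3. Hoxa4, with values of 0.17, 0.496 and 0.328 CPM in SI and 0.265, 0.886 and 0.459 CPM in LI crypts, was the tested gene that was not called (log2 fold change -0.69, adjusted p = 0.325). In the central Hoxb cluster, LI crypts 2 was the highest library: Hoxb6 was at 4.54, 18.4 and 4.72 CPM and Hoxb8 at 3.29, 9.25 and 2.34 CPM in the LI libraries. The adjusted p of Hoxb6 was 0.0549 without SI crypts 1 and 0.0539 without SI crypts 3, with log2 fold changes of -3.63 and -3.90. Hoxb3 (0.0505 and 0.0631) and Hoxb7 (0.097 and 0.0985) missed the threshold without the same libraries. With at least 10 counts required in every library, 12 Hox genes were called, since the absence of most others from SI crypts removed them from that test.

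**Figure D2:**
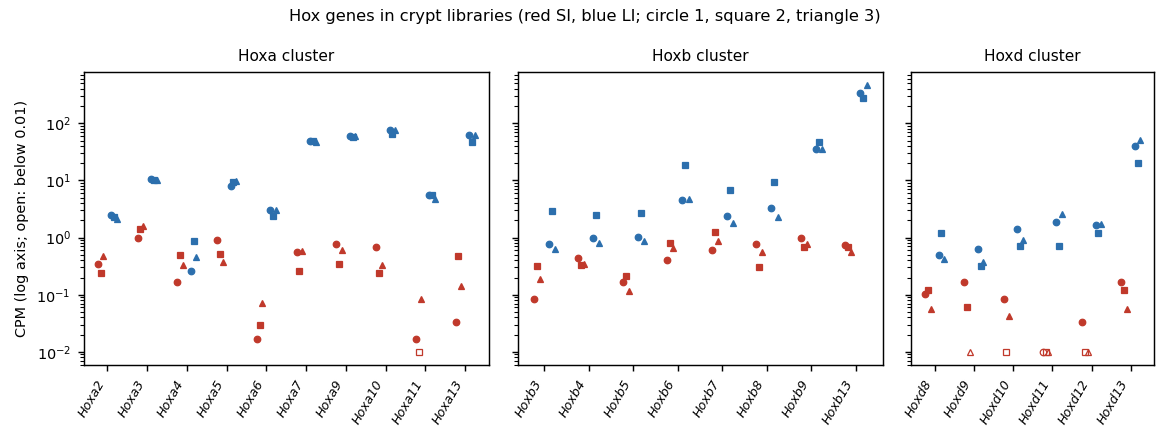
Levels of the 24 tested Hox genes in each library, on a log axis of CPM, by cluster and in chromosomal order of paralogue number. Red marks are SI and blue marks LI libraries, circles, squares and triangles are libraries 1, 2 and 3, and open marks lie below 0.01 CPM. LI values exceed SI values throughout except at Hoxa4, Hoxb13 is the highest gene (284 to 464 CPM in LI), and LI crypts 2 is above its partners from Hoxb3 to Hoxb9.

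Fat absorption uses binding proteins and esterifying enzymes that load dietary lipid into chylomicrons. Of 20 tested genes of this path, 17 were higher in SI and 1 in LI crypts (median log2 fold change 5.12). Fabp1, a cytosolic fatty acid binding protein, was at 1473, 1088 and 822 CPM in SI and 9.89, 2.82 and 0.341 CPM in LI crypts (log2 fold change 8.02, SE 1.41, adjusted p = 0.00933). Mttp, which lipidates apolipoprotein B, was at 1863, 1897 and 1287 CPM against 20.9, 8.51 and 4.78 CPM (log2 fold change 7.21, SE 0.78, adjusted p = 0.00163). The groups were far apart, and LI crypts 1 held the highest LI value of both genes. The cholesterol importer Npc1l1 was 251-fold higher in SI (log2 fold change 7.97, adjusted p = 0.00401), and the sterol exporters Abcg5 (4.45) and Abcg8 (5.26), which work as a pair, were also higher there. Apolipoproteins Apoa4 (7.88) and Apoa1 (7.30) lost the call without LI crypts 2 (adjusted p = 0.0529 and 0.0572) while their fold changes stayed at 7.64 and 7.14. Scarb1, a lipoprotein receptor, went the other way, at 3.96, 4.84 and 4.28 CPM in SI and 27.4, 26.1 and 25 CPM in LI crypts (log2 fold change -2.59, SE 0.10, adjusted p = 1.43e-07).

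All 14 tested genes of sugar digestion and uptake were called, 13 of them higher in SI (median 4.05). Sucrase-isomaltase (Sis) was at 3556, 3318 and 2305 CPM in SI and 25.5, 9.14 and 2.83 CPM in LI crypts (log2 fold change 7.94, SE 1.12, adjusted p = 0.00446). The apical glucose carrier Slc5a1 differed by less, at 3166, 3176 and 2160.4 CPM against 204, 199.9 and 203 CPM (log2 fold change 3.81, SE 0.16, adjusted p = 4.32e-07), and its LI values were almost equal between libraries. The basolateral carrier Slc2a2 (8.61), the fructose carrier Slc2a5 (5.82) and the fructose-handling enzymes Khk (4.02) and Tkfc (4.09) were higher in SI with it. Lct, lactase, was at 839, 655 and 349 CPM in SI and 4.01, 0.349 and 0.0525 CPM in LI crypts (log2 fold change 8.72, SE 1.55, adjusted p = 0.00984), a wide spread among LI libraries on a low level. Pck1, which serves gluconeogenesis and glycerol synthesis, was the member higher in LI (71.8, 50.8 and 35.9 and 113, 117 and 104 CPM, log2 fold change -1.07, adjusted p = 0.0176), and it lost the call without LI crypts 2 (-1.03, adjusted p = 0.0532), SI crypts 2 (-1.04, 0.0708) or SI crypts 3, where its fold change was -0.86.

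Brush border peptidases and the carriers of their products followed the same direction. Of 11 tested peptidases, 10 were higher in SI and none in LI (median 5.08). Aminopeptidase N (Anpep) was at 5353, 5275 and 3348 CPM in SI and 39.7, 9.72 and 5.53 CPM in LI crypts (log2 fold change 7.99, SE 1.13, adjusted p = 0.00453). Mep1a, a meprin subunit, was the member not called, with 106, 103 and 91.6 CPM in SI and 189, 189.5 and 162 CPM in LI crypts (log2 fold change -0.85, adjusted p = 3.83e-05), although its partner subunit Mep1b was higher in SI (2.16).

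Among 14 amino acid and peptide carriers, 11 were higher in SI and 2 in LI. The neutral amino acid carrier Slc6a19 was at 540.3, 491 and 333 CPM in SI and 4.62, 1.1 and 1.21 CPM in LI crypts (log2 fold change 7.63, SE 0.81, adjusted p = 0.00168). Slc43a2 (6.05), the aromatic amino acid carrier Slc16a10 (4.79) and the peptide carrier Slc15a1 (2.82) were higher in SI as well. Slc6a14, a broad sodium- and chloride-driven amino acid carrier, was the reverse, at 3.28, 3.15 and 1.51 CPM in SI and 806, 757 and 883 CPM in LI crypts (log2 fold change -8.27, SE 0.36, adjusted p = 1.23e-05). The glutamine carrier Slc1a5 was higher in LI by a smaller amount (log2 fold change -1.11, adjusted p = 2.56e-06).

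Bile acids are reclaimed in the ileum by the apical carrier SLC10A2, bound inside the cell by FABP6 and released by the SLC51A and SLC51B pair. Slc10a2 was at 15.8, 15.6 and 22 CPM in SI and 3.59, 17.8 and 3.39 CPM in LI crypts, where LI crypts 2 reached the SI range and no call was made (log2 fold change 1.11, adjusted p = 0.31). Fabp6 was higher in SI (54.7, 61.3 and 66.2 against 8.68, 13 and 10.1 CPM, log2 fold change 2.52, adjusted p = 7.04e-06). Slc51a was at 264, 269.8 and 199 CPM against 6.04, 24.9 and 2.9 CPM (log2 fold change 4.44, SE 0.97, adjusted p = 0.0191), again with the highest LI value in library 2, and its adjusted p exceeded 0.05 without SI crypts 1 (0.0613), SI crypts 2 (0.0593) or LI crypts 1 (0.0548). The bile acid receptor Nr1h4 (FXR) was higher in LI (42.2, 50.8 and 52.4 and 115, 126 and 107 CPM, log2 fold change -1.26, adjusted p = 7.31e-06), while its target Nr0b2 (SHP) had no count in LI crypts and was at least 9.47-fold higher in SI at 0.544, 0.15 and 0.456 CPM. The exporters divided as well, with Abcc2 higher in SI (6.34) and Abcc3 higher in LI (-1.55).

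Vitamin uptake genes were higher in SI in 10 of 16 cases and in none higher in LI. Rbp2, which carries retinol in enterocytes, was at 2495, 2010.1 and 1733 CPM in SI and 24.5, 10.6 and 13 CPM in LI crypts (log2 fold change 7.02, SE 0.46, adjusted p = 0.00012). The retinol dehydrogenase Rdh7 (8.20), the vitamin C carrier Slc23a1 (6.48) and Cubn (5.80) and Amn (4.61), which form the cobalamin receptor, were also higher. The proton-coupled folate carrier Slc46a1 was at 65.5, 38.8 and 41.8 CPM in SI and 20.2, 13 and 21.6 CPM in LI crypts (log2 fold change 1.42, SE 0.29, adjusted p = 0.0102). The reduced folate carrier Slc19a1 passed the test below the minimum fold change (26.6, 23.1 and 31.3 and 15.6, 14.2 and 12.2 CPM, log2 fold change 0.95, adjusted p = 0.000315).

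Genes of metal and mineral handling were called about as often as all tested genes (4 of 16, 25%, against 23%). Of these, 1 was higher in SI, the zinc carrier Slc39a5 (1.17), and 3 were higher in LI. Ferroportin (Slc40a1), the basolateral iron exporter, was at 10.8, 10 and 14.1 CPM in SI and 230.2, 213 and 220.2 CPM in LI crypts (log2 fold change -4.24, SE 0.13, adjusted p = 1.37e-07). The apical iron importer Slc11a2 showed 70.7, 65.4 and 65.3 CPM and 50.1, 46 and 54.9 CPM, a difference within the minimum fold change (log2 fold change 0.41, adjusted p = 0.00163). The calcium channel Trpv6 was at 0.34, 0.165 and 0.143 CPM in SI and 69, 38.1 and 54.1 CPM in LI crypts (log2 fold change -7.98, SE 0.39, adjusted p = 1.8e-05), and its cytosolic calcium buffer S100g was higher in LI (log2 fold change -1.13, adjusted p = 0.00686) except without LI crypts 2, where the fold change was -0.85.

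Enzymes of drug and lipid oxidation were mostly higher in SI: 16 of 25 tested P450 and esterase genes were higher there and 2 in LI crypts (median 1.77). Cyp3a11, a main mouse counterpart of human CYP3A4, was at 117, 98.7 and 65.2 CPM in SI and 1.14, 0.51 and 0.184 CPM in LI crypts (log2 fold change 7.27, SE 0.61, adjusted p = 0.000579). Cyp3a13 was less regional, at 382, 387 and 292 CPM against 101, 110.1 and 104 CPM (log2 fold change 1.75, SE 0.11, adjusted p = 2.8e-06), so SI crypts held 3.36-fold more of it where Cyp3a11 differed 154-fold. Cyp3a25 (9.09) and Cyp2b10 (7.54), a target of the receptor CAR, were higher in SI. Cyp3a41a and Cyp3a41b were below the filter, with at most 0.085 CPM, and share 98.5% and 93.1% of their 50-base windows with another gene, so reads could not be assigned to them with certainty. Cyp3a44 had no count in LI crypts and 1.02, 1.41 and 1.55 CPM in SI crypts, at least 32.8-fold more.

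Cyp1a1, induced by ligands of the aryl hydrocarbon receptor, was at 4.01, 11.8 and 5.53 CPM in SI and 0.0279, 0.0134 and 0 CPM in LI crypts, a ratio of 534 (95% interval 182 to 2590). Of the P450s in the list, Cyp2c55 was the one higher in LI (74.8, 78.4 and 26.1 and 335, 639 and 223 CPM, log2 fold change -2.74, adjusted p = 0.0271), with the highest value in LI crypts 2 and with adjusted p between 0.0509 and 0.0788 without SI crypts 1, SI crypts 2, LI crypts 1 or LI crypts 2. Carboxylesterases split: Ces2e was higher in SI (1.77), Ces1g was higher in LI (-2.93), and Ces2c was at 413, 365 and 323 CPM in SI and 323, 344 and 289.9 CPM in LI crypts (log2 fold change 0.20, adjusted p = 0.128).

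Conjugation enzymes were divided, 6 of 24 being higher in SI and 4 in LI (median 0.19). The glucuronosyltransferase Ugt2a3 was at 100.4, 70.7 and 53.3 CPM in SI and 1.07, 0.483 and 0.63 CPM in LI crypts (log2 fold change 6.68, SE 0.42, adjusted p = 0.000101). Ephx2, soluble epoxide hydrolase (3.35), and Gstm3 (1.89) were also higher in SI. The phenol sulfotransferase Sult1a1 was at 0.952, 0.766 and 0.941 CPM in SI and 293, 269 and 289.8 CPM in LI crypts (log2 fold change -8.32, SE 0.11, adjusted p = 5.81e-10), and both groups were tight. Sult1c2 (-4.06) and the glutathione transferase Gsta3 (-3.79) were higher in LI.

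**Figure D3:**
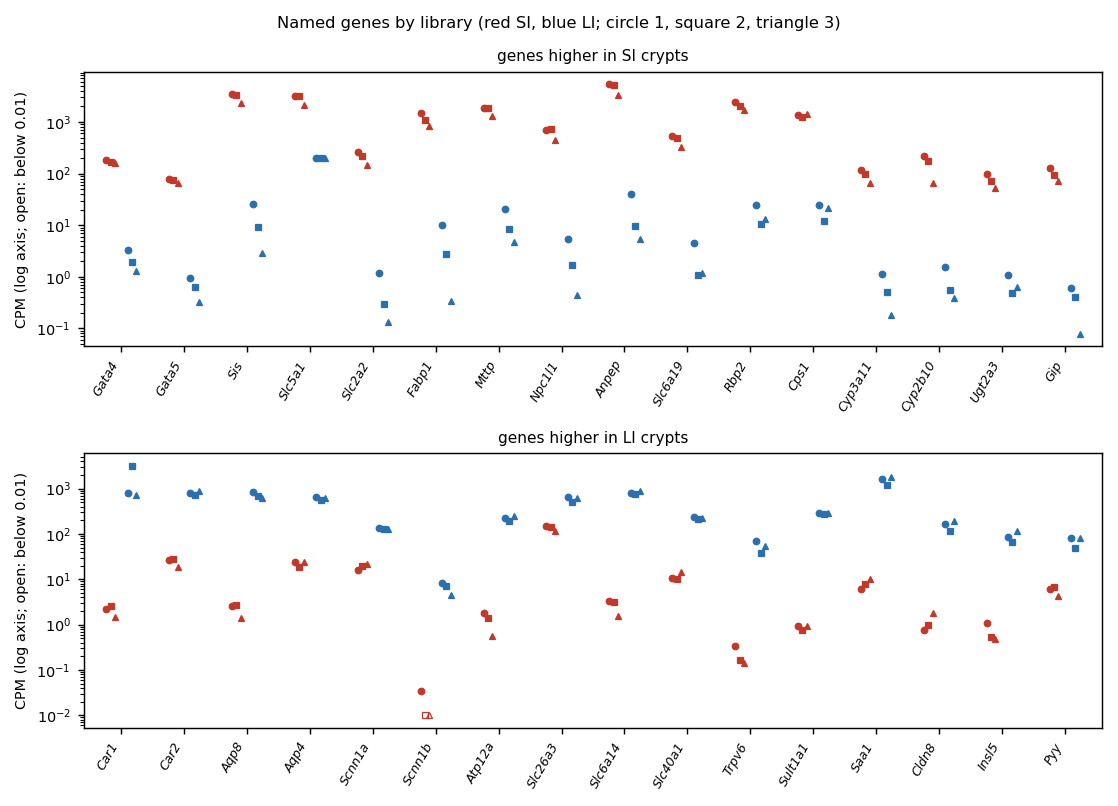
Levels of 16 genes higher in SI (top) and 16 genes higher in LI crypts (bottom) in each library, on log axes of CPM. Red marks are SI and blue marks LI libraries, circles, squares and triangles are libraries 1, 2 and 3, and open marks lie below 0.01 CPM. No gene shown overlaps between regions, and LI crypts 1 holds the highest LI value of genes such as Fabp1 and Slc2a2.

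Salt and water recovery, the task of the distal bowel, was the largest functional list with most members higher in LI: 19 of 33 tested genes, against 4 higher in SI (median -1.36). Carbonic anhydrase Car1 was at 2.24, 2.52 and 1.45 CPM in SI and 782, 3162 and 714 CPM in LI crypts (log2 fold change -9.55, SE 1.06, adjusted p = 0.00196). LI crypts 2 held several times the Car1 of the other LI libraries, and all of them lay far above SI. Car2 showed no such spread, at 26.5, 27.9 and 19 CPM against 787, 719 and 889 CPM (log2 fold change -5.03, SE 0.18, adjusted p = 3.97e-07). The water channel Aqp8 was at 2.58, 2.66 and 1.43 CPM in SI and 854, 675 and 612 CPM in LI crypts (log2 fold change -8.33, SE 0.33, adjusted p = 5.92e-06), and Aqp4 at 23.8, 19 and 23.5 CPM and 642, 571 and 634 CPM (log2 fold change -4.80, SE 0.11, adjusted p = 1.89e-08). Other water channels were higher in SI, namely Aqp3 (6.27), Aqp11 (1.73) and Aqp1 (1.48).

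The epithelial sodium channel showed the same direction in each of its 3 subunits. Scnn1a was at 16.2, 19.2 and 21.3 CPM in SI and 134, 126 and 126 CPM in LI crypts (log2 fold change -2.77, SE 0.10, adjusted p = 1.03e-07). Scnn1b had 2 counts over the SI libraries and 8.22, 7.01 and 4.54 CPM in LI crypts, a ratio of 641 (95% interval 177 to 5300), and Scnn1g had 3 counts in SI and 0.446, 0.51 and 1.08 CPM in LI crypts, a ratio of 44.5 (95% interval 15 to 218). The genes that make this channel responsive to aldosterone, the mineralocorticoid receptor Nr3c2 (-1.36) and the protecting enzyme Hsd11b2 (-4.72), were higher in LI. The colonic proton pump Atp12a was at 1.8, 1.37 and 0.57 CPM in SI and 219, 189.8 and 248 CPM in LI crypts (log2 fold change -7.48, SE 0.42, adjusted p = 7.45e-05). The anion exchangers were divided, with Slc26a3 (-2.13) and the sulfate carrier Slc26a2 (-2.34) higher in LI and Slc26a6 higher in SI (6.89). Among chloride channels, Best2 (-8.76) and Ano1 (-4.27) were higher in LI, while Cftr was at 141, 131 and 129 CPM in SI and 105, 114 and 113 CPM in LI crypts (log2 fold change 0.27, adjusted p = 0.00629).

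Among 16 microvillus genes, which shape and stock the brush border, 7 were higher in SI (median 0.73), led by intestinal alkaline phosphatase Alpi (4.58), while the actin bundler Vil1 was at 2543, 2583 and 1819 CPM against 1073, 1056 and 916 CPM (log2 fold change 1.19, SE 0.14, adjusted p = 0.000144) and ezrin (Ezr) at 955, 945 and 707 CPM and 931, 886 and 836 CPM (log2 fold change -0.03, adjusted p = 0.875). Among 18 junction genes, only the cation pore claudin Cldn15 was higher in SI (1.83) and only Cldn8 was higher in LI. These were 11.1% of the tested members, against 23% of all tested genes. Cldn8, a barrier claudin, was at 0.748, 0.961 and 1.77 CPM in SI and 169, 116 and 189 CPM in LI crypts (log2 fold change -7.07, SE 0.41, adjusted p = 7.93e-05). The scaffold Tjp1 (ZO-1) was at 95.1, 95.8 and 86.6 CPM and 98.4, 87.8 and 86.4 CPM (log2 fold change 0.03, adjusted p = 0.794). Without SI crypts 3, 4 junction genes were called instead of 2.

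Paneth cell products were higher in SI in 14 of 16 cases and in none in LI (median 7.69). Lysozyme (Lyz1) was at 1218, 2526 and 5250.5 CPM in SI and 25.4, 11.9 and 7.36 CPM in LI crypts (log2 fold change 7.65, SE 1.01, adjusted p = 0.00359), and the defensin Defa24 at 1153, 2002 and 6159.5 CPM and 22.2, 6.55 and 4.62 CPM (log2 fold change 8.13, SE 1.30, adjusted p = 0.00692). In both, SI crypts 3 held several times the level of SI crypts 1, and no LI library approached the lowest SI library. Defensin genes are near-identical copies: Defa20, Defa5 and Defa31 each share 100% of their 50-base windows with another gene, so the level of a single defensin is uncertain. Most of the 14 genes higher in SI are defensins, so the count and the median do not rest on separately measured genes. The lectin Itln1 was higher in SI with them (6.60). Ang4, an angiogenin-like antimicrobial ribonuclease, was at 948, 1692 and 4346 CPM in SI and 445, 912 and 413 CPM in LI crypts and was not called (log2 fold change 1.98, adjusted p = 0.0886), and Pla2g2a was not called either. Mmp7, which activates defensins, was called with log2 fold change 5.07, adjusted p = 0.0241, and had adjusted p of 0.0521 to 0.0787 without SI crypts 2, SI crypts 3, LI crypts 1 or LI crypts 3.

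Defence proteins of the other epithelial cells had no common direction, with 6 of 19 higher in SI and 6 in LI. Reg1 (7.84) and Reg3a (6.88), secreted C-type lectins, were higher in SI. Reg3b was at 3540.4, 3844 and 3275 CPM in SI and 736, 2421 and 723 CPM in LI crypts and was not called (log2 fold change 1.46, adjusted p = 0.0979). The phospholipase Pla2g4c was at 1122, 2041 and 1639 CPM against 36, 41.8 and 23.4 CPM (log2 fold change 5.57, SE 0.37, adjusted p = 9.02e-05). The acute phase protein Saa1 was at 6.12, 7.94 and 10.3 CPM in SI and 1665, 1191 and 1787 CPM in LI crypts (log2 fold change -7.57, SE 0.30, adjusted p = 4.25e-06). Retnlb, a goblet cell antibacterial protein (-4.08), and Lypd8, which keeps flagellated bacteria from the colonic surface (-2.63), were higher in LI. The hydrogen peroxide-producing oxidase Duox2 (1.45) and its maturation factor Duoxa2 (1.90) were higher in SI.

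Goblet cell genes were higher in LI in 12 of 15 cases, and none was higher in SI (median -1.52). Muc2 was at 239, 304 and 337 CPM in SI and 1222, 1489 and 1150.4 CPM in LI crypts (log2 fold change -2.14, SE 0.15, adjusted p = 9.02e-06). Zg16, which binds Gram-positive bacteria in mucus, was at 421, 460.4 and 696 CPM and 2801, 2908 and 3459 CPM (log2 fold change -2.54, SE 0.21, adjusted p = 6.15e-05). Secretory fate factor Atoh1 (-1.52) and the mucus proteins Fcgbp (-1.13) and Clca1 (-1.38) were higher in LI too. Tff3 was at 615, 716 and 1018 CPM in SI and 793, 832 and 1026 CPM in LI crypts, and Spink4 at 449, 687 and 1424 CPM and 596, 694 and 737 CPM. Both overlapped (log2 fold change -0.17, adjusted p = 0.507, and 0.34, 0.59). Of 21 enzymes that glycosylate or sulfate mucins, 11 were higher in LI and 2 in SI. The sialyltransferase St6galnac6 was at 16, 19 and 13.6 CPM in SI and 980.2, 891 and 952 CPM in LI crypts (log2 fold change -5.86, SE 0.14, adjusted p = 2.29e-08), and B3galt5 (-4.99), B3gnt7 (-3.65) and the fucosyltransferase Fut2 (-3.08) were also higher in LI. Gcnt4 (4.02) and St3gal4 (1.49) were the enzymes higher in SI.

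Enteroendocrine cells make different hormones along the bowel. 12 of 21 genes were higher in SI and 3 in LI. The incretin Gip was at 129, 94.9 and 70.5 CPM in SI and 0.613, 0.403 and 0.0787 CPM in LI crypts (log2 fold change 8.08, SE 0.58, adjusted p = 0.00027), and cholecystokinin (Cck, 4.15), ghrelin (Ghrl, 4.40), somatostatin (Sst, 2.72) and secretin (Sct, 2.41) were higher in SI. Insl5, a hormone of distal L cells, was at 1.09, 0.541 and 0.485 CPM in SI and 83.9, 65.3 and 118 CPM in LI crypts (log2 fold change -7.01, SE 0.42, adjusted p = 8.39e-05), and peptide YY (Pyy) was higher in LI (6.24, 6.92 and 4.29 and 81.1, 48.8 and 80.3 CPM, log2 fold change -3.59, adjusted p = 0.000225). Glucagon (Gcg, source of GLP-1) was at 38.7, 31.1 and 32.4 CPM and 69, 56.7 and 60.7 CPM, below the minimum fold change (log2 fold change -0.87, adjusted p = 0.000126), and Tph1, the serotonin enzyme, overlapped (log2 fold change 0.25, adjusted p = 0.473). The pan-endocrine gene Chga was at 114, 83 and 66.3 CPM in SI and 42.8, 42 and 34.2 CPM in LI crypts (log2 fold change 1.14, SE 0.21, adjusted p = 0.00559). Its log2 fold change was 0.92 without SI crypts 1, below the minimum.

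Tuft cells, chemosensory cells that start type 2 immune responses, were represented by a list of 1 direction: 17 of 18 genes were higher in SI and none in LI (median 2.85). The tuft cell factor Pou2f3 was at 15.9, 19.7 and 16.2 CPM in SI and 1.71, 1.75 and 1.15 CPM in LI crypts (log2 fold change 3.49, SE 0.18, adjusted p = 6.64e-07). The taste channel Trpm5 (2.85), Dclk1 (2.40) and the leukotriene enzyme Alox5 (2.84) showed differences of like size, and the succinate receptor Sucnr1 a larger one (6.78, 8.83 and 5.43 against 0.0279, 0.0806 and 0.0262 CPM, log2 fold change 7.23, adjusted p = 7.31e-07). Alox5 is also known from leukocytes. Of 15 markers of T cells and intraepithelial lymphocytes, 14 were higher in SI too, and their part in the tuft cell list was not tested. Gnat3, the taste G protein, was the member not called (2.23, 3.69 and 2.05 and 2.2, 3.68 and 0.932 CPM, log2 fold change 0.23, adjusted p = 0.729).

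**Figure D4:**
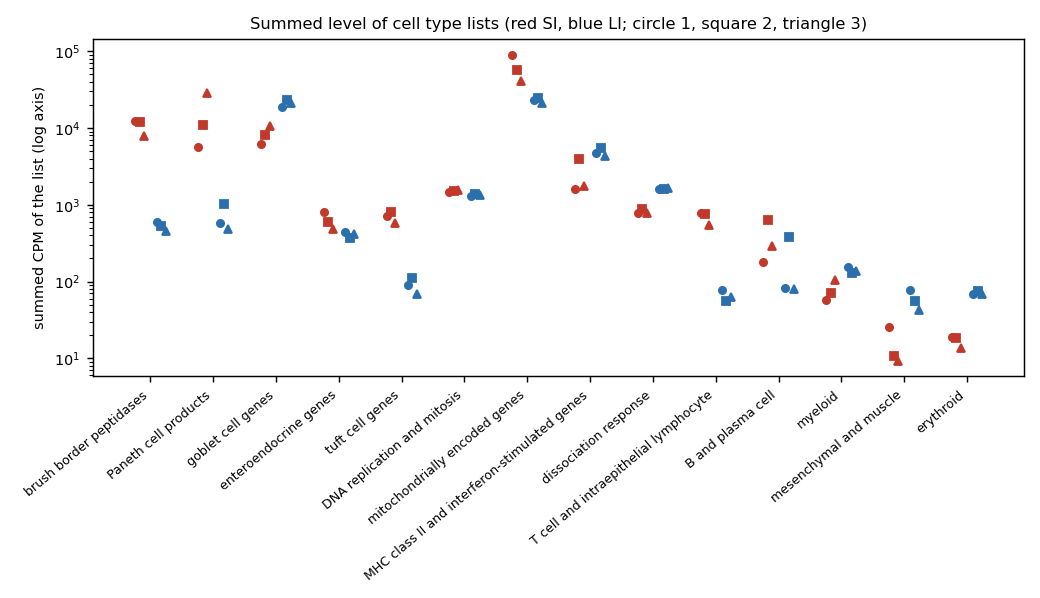
Summed CPM of the members of 14 lists of epithelial and other cell types in each library, on a log axis. Red marks are SI and blue marks LI libraries, and circles, squares and triangles are libraries 1, 2 and 3. Paneth cell products range from 5714 to 29011 CPM in SI and lie highest in SI crypts 3, mitochondrially encoded genes lie highest in SI crypts 1, and the lists of B and plasma cells overlap between regions.

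Genes of crypt stem cells differed by member. Of 19 tested, 6 were higher in SI and 1 in LI (median 0.55). Olfm4, a secreted glycoprotein of SI stem cells, was at 1235, 1036 and 1384 CPM in SI and 6.68, 0.161 and 0.0787 CPM in LI crypts (log2 fold change 9.05, SE 1.89, adjusted p = 0.0167). The LI level rested on LI crypts 1, and the adjusted p was 0.0514 without SI crypts 1 and 0.0506 without SI crypts 2, with fold changes of 9.06 and 9.16. Lgr5, the receptor for R-spondin that marks cycling stem cells, was at 11.4, 7.49 and 9.82 CPM in SI and 4.5, 4.4 and 3.88 CPM in LI crypts (log2 fold change 1.17, SE 0.17, adjusted p = 0.000337). Smoc2 (1.14) and Msi1 (3.87) were higher in SI, and the ephrin receptor Ephb3 was higher in LI (-1.27). Ascl2, the stem cell factor, overlapped at 10.6, 8.35 and 10.7 CPM and 8.56, 7.87 and 9.11 CPM (log2 fold change 0.22, adjusted p = 0.186).

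The receptor for epidermal growth factor drives crypt growth and is restrained by LRIG1. Egfr was at 18.3, 17.6 and 18.6 CPM in SI and 34.5, 28.6 and 28.1 CPM in LI crypts (log2 fold change -0.74, SE 0.09, adjusted p = 0.000141), and Lrig1 at 88.4, 95.8 and 98.9 CPM and 154, 141 and 151 CPM (log2 fold change -0.65, SE 0.07, adjusted p = 4.51e-05). Both were without overlap but below the minimum fold change, and Erbb2 was at 168, 190.0 and 169 CPM and 183, 195 and 172 CPM (log2 fold change -0.06, adjusted p = 0.515). Of 14 tested genes of this family, 5 were higher in LI, the ligands Areg (-1.87) and Hbegf (-1.36) and the feedback inhibitors Errfi1 (-1.22), Spry2 (-1.11) and Spry4 (-2.28). The ligand Nrg4 was higher in SI (1.29). None of 20 genes of DNA replication and mitosis was called by edgeR, against 23% of all tested genes, or by DESeq2. In edgeR, 11 of them had an adjusted p under 0.05 with smaller fold changes (range -0.56 to 0.70, median 0.18), and 14 of the 20 were positive. The summed level of the list was 1459 to 1577 CPM in SI and 1284 to 1383 CPM in LI crypts, a small difference without overlap. Mki67 was at 142, 146 and 143 CPM in SI and 129.6, 146 and 159 CPM in LI crypts (log2 fold change -0.01, SE 0.08, adjusted p = 0.937), and its sign changed with the processing.

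Transcripts of the mitochondrial genome took a larger share of the counts in SI. All 13 mitochondrially encoded protein genes were higher in SI (median 1.79), and their summed level was 90135, 56468 and 41356 CPM in SI and 23431, 24490 and 21256 CPM in LI crypts. SI crypts 1 was the highest library and SI crypts 3, still above LI, the lowest of SI. The subunit mt-Nd2 was at 4614, 2953 and 2338 CPM in SI and 735, 788 and 743 CPM in LI crypts (log2 fold change 2.13, SE 0.25, adjusted p = 0.000656). mt-Co1 differed least (log2 fold change 1.13, adjusted p = 0.0234), and its fold change was 0.76 without SI crypts 1, while its adjusted p was 0.0684 without SI crypts 2 and 0.0641 without LI crypts 3. Several of these genes, among them mt-Co2 and mt-Co3, share 100% of their 50-base windows with nuclear copies, so their level is uncertain. Nuclear genes of fatty acid oxidation had a median of 0.18: 2 of 15 were higher in SI and 1 in LI. That is 20% called, against 23% of all tested genes, and without LI crypts 3 the count of called genes was 5 instead of 3. Cholesterol synthesis had 2 of 18 genes higher in LI, Fdps (-1.23) and Mvd (-1.04), or 11.1% called, below the share of all tested genes. This count was 1 without SI crypts 1 or LI crypts 2 and 4 without SI crypts 3.

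Citrulline, which the kidney turns into arginine, is made from glutamine in the small intestine. Of 12 genes of this path, 8 were higher in SI and 2 in LI (median 2.64). Carbamoyl phosphate synthetase Cps1 was at 1352, 1245 and 1427 CPM in SI and 25, 12.2 and 21.6 CPM in LI crypts (log2 fold change 6.10, SE 0.32, adjusted p = 2.49e-05). Ornithine transcarbamylase Otc (3.44), Nags, which makes the activator of CPS1 (3.55), and arginase Arg2 (5.88) were higher in SI too. Ass1, which uses up citrulline, was at 12.5, 11 and 14.7 CPM in SI and 61, 57.1 and 79.2 CPM in LI crypts (log2 fold change -2.37, SE 0.16, adjusted p = 1.45e-05), although 45.4% of its 50-base windows also occur in a similar gene.

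Of 16 genes of MHC class II and the interferon response, 8 were higher in LI and none in SI, and all 8 were interferon-stimulated genes. The ubiquitin-like protein Isg15 was at 12.4, 14.1 and 11 CPM in SI and 90.7, 76.7 and 65.6 CPM in LI crypts (log2 fold change -2.64, SE 0.14, adjusted p = 3.15e-06), and Gbp2, a guanylate binding protein (-4.65), Oas1a (-2.09) and Irf7 (-1.74) were higher in LI. Cd74, the invariant chain, was at 391, 1223 and 483 CPM in SI and 1330.1, 1642 and 1203 CPM in LI crypts (log2 fold change -0.99, adjusted p = 0.171), and SI crypts 2 was the library that met the LI range. Without SI crypts 2, 15 members of the list were called instead of 8.

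Immediate early genes respond to handling within minutes. Of 21 genes of the dissociation response, 10 were higher in LI and 1 in SI (median -1.12), and the summed level of the list was 779.8, 879.9 and 773 CPM in SI and 1609, 1606 and 1665 CPM in LI crypts. Fos was at 39.6, 45.6 and 33.9 CPM in SI and 179.7, 183 and 187 CPM in LI crypts (log2 fold change -2.21, SE 0.10, adjusted p = 5.39e-07), and Jun at 46.5, 51.3 and 51.2 CPM and 201, 196 and 205 CPM (log2 fold change -2.02, SE 0.06, adjusted p = 5.33e-08). Fosb (-4.60), Dusp1 (-2.37), Egr1 (-2.20) and Ier2 (-1.12) were higher in LI with them. These genes also act in growth factor signalling, and region and isolation procedure cannot be told apart here.

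Epithelial markers were high in every library, and markers of other cells were low but regional. Epcam was at 1508, 1560.2 and 1504 CPM in SI and 1946, 1855 and 1969 CPM in LI crypts (log2 fold change -0.34, adjusted p = 0.0032), and the summed level of 10 epithelial markers was 17524 to 19423 CPM in SI and 29474 to 29957 CPM in LI crypts, with Krt8 (-1.21) and Krt19 (-1.24) higher in LI. Of 15 genes of T cells and intraepithelial lymphocytes, 14 were higher in SI, with sums of 547.7 to 771 CPM in SI and 55.5 to 76.9 CPM in LI crypts. The cytotoxic granule gene Gzma was at 340.1, 329 and 258 CPM and 13.3, 8.34 and 12.2 CPM (log2 fold change 4.78, SE 0.22, adjusted p = 8.13e-06). B and plasma cell genes overlapped (182 to 629.6 CPM and 79.4 to 386 CPM), with 1 of 11 tested genes called. Of 12 mesenchymal and muscle genes, 6 were higher in LI (sums 9.31 to 25.8 CPM in SI and 42.1 to 77.2 CPM in LI). Of 12 myeloid genes, 6 were higher in LI and 3 in SI (56.7 to 106 and 129 to 153 CPM). All 6 erythroid genes were higher in LI (13.5 to 18.7 and 68.4 to 74.5 CPM). Endothelial genes reached at most 6.25 CPM in sum in any library, the pancreatic genes at most 0.21 CPM, and no glial gene was called. The part of these cells in the results above was not tested.

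Beyond the lists, the genes that differed most were named by rule. Mbl2, mannose-binding lectin, had 12.7, 17.1 and 15.2 CPM in SI and no count in LI crypts, so it was at least 370-fold higher in SI. The nucleoside carrier Slc28a1 was at 228, 214 and 159 CPM in SI and 1.04, 0 and 0 CPM in LI crypts (log2 fold change 9.20, SE 1.14, adjusted p = 0.00288). The aquaglyceroporin Aqp7 (9.01), the inositol carrier Slc5a11 (8.86), alkaline sphingomyelinase Enpp7 (8.80) and neprilysin Mme (8.29) were higher in SI with it. The sugar carrier relative Slc5a4a (8.41) and defensins or defensin-like genes, Defa31, Defa-ps6, AY761184, Gm15292 and Gm14851, with fold changes from 8.25 to 8.77, completed the 12.

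At the LI end, transglutaminase Tgm3 was at 2.01, 1.997 and 1.11 CPM in SI and 1102, 715 and 1222 CPM in LI crypts (log2 fold change -9.22, SE 0.40, adjusted p = 1.33e-05). Hottip, a noncoding RNA at the posterior end of the Hoxa cluster, was at 0.068, 0 and 0 CPM and 27.3, 18.5 and 23.4 CPM (log2 fold change -10.01, SE 0.47, adjusted p = 3.69e-06). Nxpe4 (-8.43), lactoperoxidase Lpo (-9.13), the phospholipase Pla2g4f (-9.82), the P450s Cyp2d9 (-9.51) and Cyp2d12 (-8.93), the blood group enzyme Abo (-8.79), Vsig1 (-8.46), Sval1 (-8.29) and Gm8540 (-9.27) were also higher in LI. The gene 7530428D23Rik had 1 count over the SI libraries and 10.6, 6.98 and 13.2 CPM in LI crypts, a ratio of 2010 (95% interval 361 to 79600).

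The monolayers showed which of these differences were also present after 24 h of culture. Among 17445 genes tested between SI and LI monolayers, 22.1% were called, 12.5% as higher in SI and 9.62% as higher in LI. Of all genes higher in SI crypts, 46.3% were also higher in SI monolayers, and of those higher in LI crypts, 34.7% were also higher in LI monolayers. The crypt and monolayer comparisons share no library. Monolayer libraries are pooled wells, so their p-values measure the spread among wells and cannot stand for that among mice. Among list members, 150 of 193 genes higher in SI crypts were higher in SI monolayers and 59 of 124 genes higher in LI crypts were higher in LI monolayers, while 5 and 15 were called in the opposite direction, against 3.54% and 6.47% of all genes higher in SI or LI crypts. Sis (6.06 in monolayers), Gata4 (5.52), Cps1 (6.22), Hoxb13 (-6.07), Aqp8 (-6.54) and Slc6a14 (-6.03) kept their direction on the log2 scale and were called.

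The lists divided in culture, where 46.3% of all genes higher in SI crypts and 34.7% of those higher in LI crypts were called in the same direction. All 14 Paneth cell products and all 13 sugar genes higher in SI crypts were higher in SI monolayers. Most of those Paneth cell products are defensins that share sequence. Of 23 Hox genes higher in LI crypts, 20 were higher in LI monolayers. Of 12 goblet cell genes higher in LI crypts, 2 were higher in LI monolayers, Muc2 (-1.30) and Klk1 (-3.63), and 4 were higher in SI monolayers. None of the 13 mitochondrially encoded genes was called between monolayers. Ferroportin (Slc40a1, 0.20, adjusted p = 0.139), Cd36 (0.60, 0.196) and Sult1a1 (2.08, 0.228) were not called in monolayers. Sult1a1 was at 0 to 0.84 CPM in SI and 0.034 to 0.17 CPM in LI monolayers, and Cd36 at 0.49 to 1.06 and 0.27 to 0.78 CPM. Both were low in every monolayer library, so the missing call says little about region. In the dissociation list, 3 of 10 genes higher in LI crypts were higher in LI monolayers, close to the share over all such genes. Fos was at 0.02 there (adjusted p = 0.795).

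**Figure D5:**
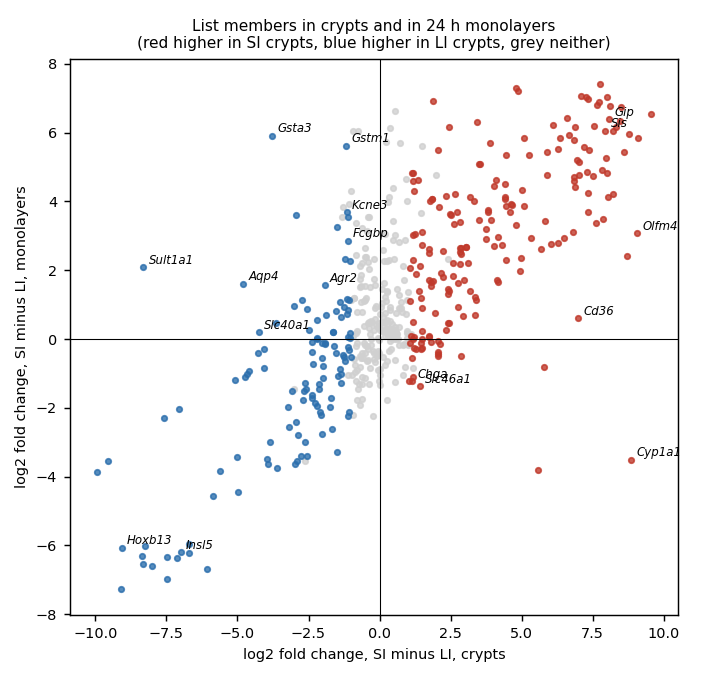
Log2 fold change of SI minus LI in crypts (horizontal axis) and in monolayers (vertical axis) for 514 list members tested in both. Red points are genes higher in SI crypts, blue points genes higher in LI crypts and grey points neither. Most coloured points have the same sign on both axes, and genes such as Cyp1a1, Gsta3, Gstm1 and Aqp4 have opposite signs.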

How the data were processed

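RNA of 12 libraries (SI and LI, as crypts and as monolayers, 3 each) was sequenced from both ends. According to the methods and the submitters' processing notes, the authors aligned reads with STAR 2.7.9a and counted them per gene with featureCounts 2.0.2 on a GENCODE annotation of GRCm38, and the deposited table holds raw counts for 55487 genes. The deposited DESeq2-normalised table (version 3.13 in those notes) was not used. Strand handling is not given in the sources used here. Even numbers made up 73.4% to 74.7% of counts from 1 to 20, so that both mates of a pair may have been counted, which would raise the limit of a count of 0 to 0.0787 to 0.102 CPM, widen the intervals of ratios and lower the bounds for genes without a count to 185-fold (Mbl2), 18.9-fold (Hoxd11), 16.4-fold (Cyp3a44) and 4.74-fold (Nr0b2). Intervals and limits cover counting error only. Gene names and positions came from GENCODE vM21 and promoters from RefSeq on GRCm38.p6.

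Genes were kept by filterByExpr, scaled by TMM and tested with the robust quasi-likelihood model of edgeR 4.0.16 (R 4.3.3) on the 6 crypt libraries alone, with Benjamini-Hochberg adjustment and the calling rule given above. Monolayers were fitted separately in the same way, and the difference between the regional effects of crypts and monolayers was tested as an interaction over all 12 libraries. Counts were simulated in place of these 6 libraries, with 18191 genes run. Here edgeR called 100 of 100 genes changed by a log2 of 2, 100 of 100 changed by 4, and 5 unchanged genes, and DESeq2 1.42.0 did the same. The simulated spread was the one typical of genes at each level, and only genes above a minimum level were changed. Recovery was therefore nearly fixed in advance and says nothing about genes with a wider spread between libraries. The median squared difference between libraries of a group was 8.81 to 13.4 times the one that counting noise of independent counts would give, so none was a copy of another. Deviations of same-numbered SI and LI libraries correlated at -0.0089, 0.0767 and 0.00648, and the libraries were treated as unpaired.

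Of each list, the called members with the largest fold changes and at least 10 CPM were described first, up to 6, other members follow for their role, and outside the lists the 12 largest differences in each direction were named. The lists, members and tests were chosen with earlier results of these data known. Sequence shared between genes was measured as the share of 50-base windows of a transcript that occur in another gene, and such counts are uncertain. Alternatives were DESeq2, upper quartile scaling, no filter, a requirement of 10 counts in each library, calling without a fold change minimum, 1 model for all 12 libraries, omission of mitochondrial genes, a replicate block, halved counts and leaving out each library. Some members of the lists are counted but not reported by name here.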

Additional observations from a re-analysis of the deposited data

Results flagged for a closer look

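The 20 genes below are the members of the 29 gene lists that were called in opposite directions in crypts and monolayers. The difference between the regional effects was tested as an interaction over the same 12 libraries with edgeR (adjusted p from 2.87e-10 to 0.00166). Because the genes were chosen by those opposite calls, a low adjusted p was nearly fixed in advance and adds no support. The test also combines libraries of mice with libraries of pooled wells. Values are the log2 fold change of SI minus LI in crypts, the same in monolayers, and their difference. The difference is the interaction estimate of the 12-library model, so it departs slightly from subtracting the printed values. Of all genes higher in SI crypts, in the lists or not, 72 (3.54%) were higher in LI monolayers. Of all genes higher in LI crypts, 144 (6.47%) were higher in SI monolayers. Culture, cell composition and isolation were not separated, and their part was not tested. No group was tested for single outlying libraries, since each holds 3.

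Among enzymes of drug metabolism, Cyp1a1 was nearly absent from LI crypts and was higher in LI monolayers (-3.51), with a difference of 12.44 that depends on the few LI counts. The glutathione transferases Gsta3 (-3.79 in crypts, 5.91 in monolayers, difference -9.63) and Gstm1 (-1.19, 5.61, -6.73), the esterase Ces1g (-2.93, 3.61, -6.46) and Cyp2c55 (-2.74, 1.12, -3.79) were higher in LI crypts and in SI monolayers. Gsta3 was at 3.53 ± 1.65 CPM (SD, n = 3) in SI and 48.6 ± 11 CPM in LI crypts. In monolayers, where n is 3 libraries of pooled wells, it was at 35.9 ± 0.944 CPM in SI and 0.596 ± 0.031 CPM in LI.

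Among transport genes, Aqp4 (-4.80, 1.60, -6.33), the potassium channel subunit Kcne3 (-1.16, 3.68, -4.77) and S100g (-1.13, 3.55, -4.60) were higher in LI crypts and SI monolayers, and the folate carrier Slc46a1 was the reverse (1.42, -1.38, 2.87). Slc46a1 was at 48.7 ± 14.6 CPM in SI and 18.3 ± 4.57 CPM in LI crypts, and at 10.8 ± 0.675 CPM and 28.2 ± 1.24 CPM in the monolayers. Aqp4 was at 22.1 ± 2.7 CPM and 616 ± 38.9 CPM in SI and LI crypts, and at 5.78 ± 1.03 CPM and 1.91 ± 0.228 CPM in SI and LI monolayers, so its LI level was far lower in culture.

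Goblet cell genes gave 4 of the 20: Fcgbp (-1.13, 2.86, -3.91), Agr2 (-1.94, 1.56, -3.43), Clca1 (-1.38, 1.07, -2.38) and Foxa3 (-1.16, 1.16, -2.24). The nitric oxide synthase Nos2 (-1.49, 3.25, -4.66), the sterol enzymes Fdps (-1.23, 2.32, -3.47) and Mvd (-1.04, 2.27, -3.24) and the proline enzyme Pycr1 (-1.07, 1.13, -2.13) were also higher in LI crypts and SI monolayers. Chga (1.14, -1.24, 2.45), the prostaglandin synthase Hpgds (1.19, -1.11, 2.37) and the protocadherin Cdhr2 (1.04, -1.22, 2.34) were higher in SI crypts and LI monolayers.

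Several of these crypt calls were lost when 1 library was left out. Nos2 had adjusted p of 0.0921 without SI crypts 3, 0.0626 without LI crypts 1 and 0.0749 without LI crypts 2. Cyp2c55 had adjusted p of 0.0509 to 0.0788 without SI crypts 1, SI crypts 2, LI crypts 1 or LI crypts 2. The log2 fold change fell under the minimum for Gstm1 without SI crypts 3 (-0.99), Foxa3 without SI crypts 1 (-0.95), Pycr1 without SI crypts 1 (-0.91) or LI crypts 1 (-0.96), Mvd without SI crypts 1 (-0.93) or LI crypts 2 (-0.91), S100g without LI crypts 2 (-0.85) and Chga without SI crypts 1 (0.92). That of Cdhr2 was 0.96 without SI crypts 2 and 0.99 without LI crypts 3, and was also under the minimum without SI crypts 1.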

How the results depend on the processing

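Without a minimum fold change, 4561 genes were higher in SI and 4956 in LI, and the lists of minerals (12), conjugation (17), microvillus (14), stem cell (15), replication (11), fatty acid oxidation (11), cholesterol synthesis (14) and junction genes (14) gained called members. Leaving mitochondrial genes out removed that list (0 called). At least 10 counts in every library left 12 called Hox genes, since fewer were tested. With all 12 libraries in 1 model, 1 cholesterol synthesis gene was called. With the replicate number as a block, 7 Paneth cell genes were called in place of 14, and the number of genes higher in SI crypts was 1940 and that of genes higher in LI crypts 2167. The correlations of same-numbered libraries were not all above 0.1, so the numbers are not shown to pair the samples. Leaving out each library gave 1869 to 2171 genes higher in SI and 2085 to 2303 in LI, 1 to 4 cholesterol synthesis genes, 2 to 4 junction genes, 3 to 5 fatty acid oxidation genes and 7 to 15 genes of MHC class II and the interferon response. The cause was not tested.

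The log2 fold change of Mki67, which was near 0, changed sign: 0.0045 with DESeq2, 0.0098 with at least 10 counts, 0.055 with 12 libraries, 0.0015 with counts halved, and -0.071 to 0.075 over the left-out libraries. Erbb2 was at 0.0016 with 12 libraries, and the log2 fold change of Tjp1 ran from -0.00053 to 0.098 over the left-out libraries. None of these values was called. Of 341 called genes of the lists and named genes, none changed direction under any alternative that tested it, and 12 to 24 lost the call when 1 library was left out, 13 under the block, 8 without the filter and 6 with 12 libraries. At this depth, genes under about 0.05 CPM, or 0.102 CPM if both mates were counted, cannot be told from absent.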

Other observations

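Some regional genes lay side by side. Among tested genes ordered along the chromosomes, 31 runs of at least 5 neighbours were called in 1 direction, 13 higher in SI and 18 higher in LI. The longest, on chromosome 8 from 20567597 to 22060305 (GRCm38), held 34 genes higher in SI, nearly all of them defensins and defensin-like genes that share sequence. A run of 14 genes higher in LI on chromosome 6 (52201754 to 52318378) covered the posterior Hoxa cluster from Hoxa5 to Evx1 with its noncoding RNAs, and the Hoxb (9 genes on chromosome 11, 96251105 to 96347930) and Hoxd clusters (7 genes on chromosome 2, 74652991 to 74707933) gave others. On chromosome 13 (19178024 to 19352756), 10 T cell receptor gamma genes were higher in SI, and so were 14 of the 15 lymphocyte markers. Runs of 8 Ly6 and neighbouring genes and of 6 Cyp2d genes and pseudogenes on chromosome 15 were higher in LI. On chromosome 1 (24611535 to 24616197), 7 genes that are nuclear copies of mitochondrial DNA were higher in SI together with the mitochondrial genes they resemble. Adjacent genes of these families can share reads, and overlapping or antisense members cannot be separated without strand.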
